A study of Mus musculus with 4 samples.

Results

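Troponin is the calcium switch of the muscle thin filament, and 8 mouse genes encode its 3 subunits. They were taken by symbol from the feature lists of 4 single-cell RNA sequencing libraries: Tnnt1, Tnnt2 and Tnnt3 for troponin T, Tnni1, Tnni2 and Tnni3 for troponin I, and Tnnc1 and Tnnc2 for troponin C. Each symbol matched 1 feature, so 8 of 32286 features were used in the libraries of days 4 to 6 and 8 of 32287 in the library of day 11. The libraries held UMIs of all 8.

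The libraries came from gastruloids, which are aggregates of mouse embryonic stem cells that form the derivatives of the germ layers in culture. All 4 were made from the Zx1 line, labelled wild type, and there was 1 library for each of days 4, 5, 6 and 11. The cells had been exposed to the Wnt agonist Chiron before day 4 and to bFGF, VEGF and ascorbic acid from day 4 to day 7, so the day 4 library precedes the cardiogenic factors, days 5 and 6 fall within them and day 11 follows their removal. With 1 library per day of a single line there was no replicate, and day, culture and library cannot be told apart. No test was made, therefore. The intervals given are exact 95% intervals that cover counting error only, and the ratios describe these libraries.

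In striated muscle, troponin T ties the complex to tropomyosin, troponin I inhibits the interaction of actin and myosin, and troponin C binds calcium and relieves that inhibition. Tnnt2 and Tnni3 encode the cardiac forms of troponin T and I, Tnnt1 and Tnni1 the slow skeletal forms, and Tnnt3, Tnni2 and Tnnc2 the fast skeletal forms, whereas Tnnc1 encodes a form shared by heart and slow skeletal muscle. The embryonic heart is known to express Tnni1 first and to replace it with Tnni3 as it matures, and embryonic skeletal muscle is known to express Tnnt2 transiently.

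The genes lie in 3 neighbouring pairs and 2 single loci (GRCm38, the assembly called mm10, with GENCODE coordinates). Tnni1 (ENSMUSG00000026418) spans chr1:135779434-135810989 and Tnnt2 (ENSMUSG00000026414) spans chr1:135836354-135852260, both on the plus strand and 25.4 kb apart. Tnnt1 (ENSMUSG00000064179) spans chr7:4504570-4516382 and Tnni3 (ENSMUSG00000035458) spans chr7:4518305-4524229, both on the minus strand and 1.92 kb apart. Tnni2 (ENSMUSG00000031097) spans chr7:142441808-142444410 and Tnnt3 (ENSMUSG00000061723) spans chr7:142498836-142516009, both on the plus strand and 54.4 kb apart. Tnnc1 (ENSMUSG00000091898) lies alone at chr14:31208312-31211729 on the plus strand, and Tnnc2 (ENSMUSG00000017300) at chr2:164777161-164779967 on the minus strand. Of the overlapping genes, Dnaaf3 lies on the same strand as Tnni3 and shares 1297 bases with it, upstream of the main Tnni3 start. Prr33, Nisch and Ube2c overlap Tnnt3, Tnnc1 and Tnnc2 on the opposite strand.

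The sequence before the transcription start is shown for 5 genes, because Tnnt2, Tnnc1, Tnni1 and Tnni3 were high together in cells with cardiomyocyte markers and Tnnc2 was high in cells with skeletal muscle markers. The sequences are from RefSeq (GRCm38.p6), which had promoter entries for 6 of the 8 genes and none for Tnni2 or Tnnt3. Each is the first listed start, read 5′ to 3′ on the strand of the gene, with bases that an annotated untranslated region covers left out. Capitals mark matches on either strand to 5 motifs, namely the M-CAT core CATTCC, the E-box CANNTG, the GATA motif AGATAA, the MEF2 motif and the CArG box. The search covered all 250 bases before each start, of which the printed run can be shorter. The Tnni1, Tnni3 and Tnnc2 starts lie inside the longer annotated genes, and the Tnnc2 run reaches beyond its gene.
Tnnt2, chr1:135836084-135836333, plus strand: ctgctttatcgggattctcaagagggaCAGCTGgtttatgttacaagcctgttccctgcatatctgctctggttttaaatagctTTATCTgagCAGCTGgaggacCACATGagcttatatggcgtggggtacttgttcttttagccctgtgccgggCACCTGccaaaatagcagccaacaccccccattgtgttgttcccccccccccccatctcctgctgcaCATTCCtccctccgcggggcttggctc
Tnnc1, chr14:31208062-31208311, plus strand: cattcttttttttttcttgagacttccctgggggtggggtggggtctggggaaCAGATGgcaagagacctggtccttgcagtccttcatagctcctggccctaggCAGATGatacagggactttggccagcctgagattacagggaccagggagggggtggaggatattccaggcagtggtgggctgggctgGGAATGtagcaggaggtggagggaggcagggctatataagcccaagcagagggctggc
Tnni1, chr1:135799171-135799401, plus strand: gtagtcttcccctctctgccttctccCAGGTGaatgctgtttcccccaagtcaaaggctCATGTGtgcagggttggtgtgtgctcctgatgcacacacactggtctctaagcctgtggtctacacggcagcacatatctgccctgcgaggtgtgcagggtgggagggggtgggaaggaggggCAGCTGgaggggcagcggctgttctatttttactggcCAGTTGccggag
Tnni3, chr7:4522529-4522694, minus strand: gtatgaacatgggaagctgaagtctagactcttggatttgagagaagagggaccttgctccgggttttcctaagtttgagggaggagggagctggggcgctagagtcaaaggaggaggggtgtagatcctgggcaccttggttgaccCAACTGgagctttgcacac
Tnnc2, chr2:164779742-164779984, minus strand: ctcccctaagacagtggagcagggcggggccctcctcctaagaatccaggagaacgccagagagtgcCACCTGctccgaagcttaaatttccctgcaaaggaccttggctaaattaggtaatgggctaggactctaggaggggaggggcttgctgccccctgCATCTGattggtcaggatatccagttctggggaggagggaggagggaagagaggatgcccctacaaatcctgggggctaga

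An E-box matched in all 6 genes with an entry, as in 66.2% of all 32841 RefSeq promoter windows of 250 bases. The M-CAT core matched in Tnnt2, at 27 to 22 bases before the start, and in Tnnc1, on the other strand at 58 to 53 bases before the start. It matched in 12.6% of all windows. A GATA motif matched in Tnnt2 alone of these genes, on the other strand at 166 to 161 bases before the start, and in 9.99% of all windows. The MEF2 motif (2.92% of all windows) and the CArG box (1.47%) had no match in these windows, which says only that those letters are not there. No 2 of the matches overlapped, and the E-box reads the same on both strands.

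After filtering, 6555, 6457, 5254 and 7854 cells were kept at days 4, 5, 6 and 11, with a median of 24214, 28152, 24746.5 and 11425.5 unique molecular identifiers (UMIs, 1 per captured RNA molecule) per cell. Between 5 and 23 barcodes occurred in both of any pair of libraries. Levels are given in CPM, the UMIs of a gene per 1000000 UMIs of all genes, summed over the cells of a pool. A UMI tags the 3′ end of a molecule, so these levels do not grow with gene length, but capture can still differ between genes. A low level summed over all cells can come from few cells or from little RNA per cell, and the 2 cannot be told apart in that sum.

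Cells were split by 2 genes that are not troponins. Myl7-high cells had 3000 CPM or more, in the single cell, of Myl7, an atrial and early cardiac myosin light chain, and Myog positive cells had at least 1 UMI of Myog, a transcription factor of differentiating skeletal muscle. There were 428 Myl7-high cells at day 6 and 1264 at day 11, and none at days 4 or 5. Myog positive cells numbered 5, 4, 3 and 178 at days 4, 5, 6 and 11, so only day 11 was used for them. A further 20 cells of day 11 met both rules and were kept apart. The Myl7-high class is a range of a per-cell value. At day 6, 73 cells lay between 2000 and 3000 CPM of Myl7, with a median Tnnt2 of 556 CPM, and 51 lay between 3000 and 4000, with a median of 1226. At day 11, the same ranges held 52 and 54 cells, with median Tnnt2 levels of 2310 and 3480 CPM, so cells just under the limit there already had high Tnnt2.

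The classes carried the markers of their names. Of 10 cardiomyocyte markers, 9 were at least 10-fold higher in Myl7-high cells than in cells of neither class at day 6 (the exception, Nppa, stood at 3.45 against 0.10 CPM), and 10 were at day 11, after 1 was added to each level. Their summed level was 10224 against 198 CPM at day 6 and 18980 against 270 at day 11. Of 12 skeletal muscle markers, 8 were at 0 in the Myl7-high cells of day 6, and the summed level there was 1.24 CPM at day 6 and 11.9 at day 11. In the Myog positive cells of day 11 the 12 summed to 1679 CPM against 16.99 in cells of neither class, and 9 were at least 10-fold higher. The cardiomyocyte list summed to 2890 CPM in the same cells. Myl4 and Ttn, which skeletal muscle also uses, made up 1390 and 1134 of it, Nkx2-5 stood at 0.76 and Nppa at 0. The smooth muscle list summed to 237 and 221 CPM in the Myl7-high cells of days 6 and 11. In cells of neither class it summed to 20.5 and 23.9. The Myl7-high cells of day 11 held less of the mesenchyme (87.3 and 24.4), mesothelial (24.5 and 6.03) and cardiac transcription factor lists (960 and 574). Their endoderm (5.31 and 22.1) and neural sums (12.2 and 30.3) were higher. In Myog positive cells, the cardiac factor and neural crest sums were 504 and 42.0, against 150 and 11.0 in cells of neither class. The part of these lists in the results was not tested.

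Over all cells, the troponin genes were low at days 4 and 5, and 3 of them stood above 100 CPM at day 6. Tnnt2 stood at 0.75 (0.63 to 0.88), 3.65 (3.38 to 3.92), 342.5 (339.6 to 345.5) and 1621 (1614 to 1629) CPM at days 4, 5, 6 and 11. Tnni1 stood at 5.74, 20.6, 301.9 and 666.3 CPM, and Tnnc1 at 1.70, 12.0, 143.5 and 807.6. Tnni3, the cardiac troponin I, stood at 1.0, 1.38, 39.8 and 596.4, or 28.9-fold higher at day 6 than at day 5 and 14.999-fold higher at day 11 than at day 6. Tnnt1 stood at 2.23, 2.77, 7.23 and 122.9 CPM, and Tnnc2 at 0.04, 0.29, 0.24 and 42.3. Tnni2 never exceeded 8.55 CPM over all cells. Tnnt3 had another course, with 5.89 and 6.4 CPM at days 4 and 5, 1.63 at day 6 and 9.24 at day 11.

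In the order of levels at day 4, Tnnt3 and Tnni1 came first and their intervals overlapped (5.55 to 6.24 and 5.41 to 6.09 CPM). They were followed by Tnnt1 and Tnnc1, which lay apart, and by Tnni3, Tnnt2 and Tnni2, each of which overlapped with the next, and Tnnc2 came last. At day 5 the order was Tnni1, Tnnc1, Tnnt3, Tnnt2 and Tnnt1, then Tnni2 and Tnni3 with overlapping intervals, and Tnnc2 last. At day 6 it was Tnnt2, Tnni1, Tnnc1, Tnni3 and Tnnt1, and at day 11 Tnnt2, Tnnc1, Tnni1, Tnni3 and Tnnt1, with no overlap among these 5 at either day.

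The genes were set against all others as ratios of levels after 1 was added, and a gene was called at 2-fold or more where the mean of the 2 levels was at least 5 CPM. A gene under 5 CPM in one pool reaches that mean only through the other, so the direction of its call was fixed by the filter, for troponin and pathway genes alike, and the counts of calls are a description. Between days 4 and 5, 3 troponin genes reached that mean, and Tnni1 (20.6 against 5.74) and Tnnc1 (12.0 against 1.70) were called higher, where 6.5% of 9243 genes were called higher and 3.92% lower. Tnnc1 was under 5 CPM at day 4, and with 10 added in place of 1 neither call was kept (log2 ratios of 0.96 and 0.91). Between days 5 and 6, 5 reached it and all 5 (Tnnt1, Tnnt2, Tnni1, Tnni3 and Tnnc1) were called higher, against 10.9% of genes higher and 3.84% lower. Tnnt1, Tnnt2 and Tnni3 were under 5 CPM at day 5, and the Tnnt1 call was lost with 10 added (0.43). Tnnt3, which the filter left out, had a log2 ratio of -1.49. With 1 added, Tnnt2 had the largest log2 ratio of these at 6.21. Between days 6 and 11, all 8 reached it and all 8 were called higher, against 8.69% higher and 3.4% lower, with log2 ratios from 1.14 for Tnni1 to 5.13 for Tnnc2. Tnnt3, Tnni2 and Tnnc2 were under 5 CPM at day 6, and the calls of Tnnt3 (0.73) and Tnni2 (0.59) were lost with 10 added. The median over all genes was -0.03, 0.17 and 0.02 in the 3 steps. Since the number of muscle cells also differed between days, these ratios are not ratios per muscle cell.

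**Figure D1:**
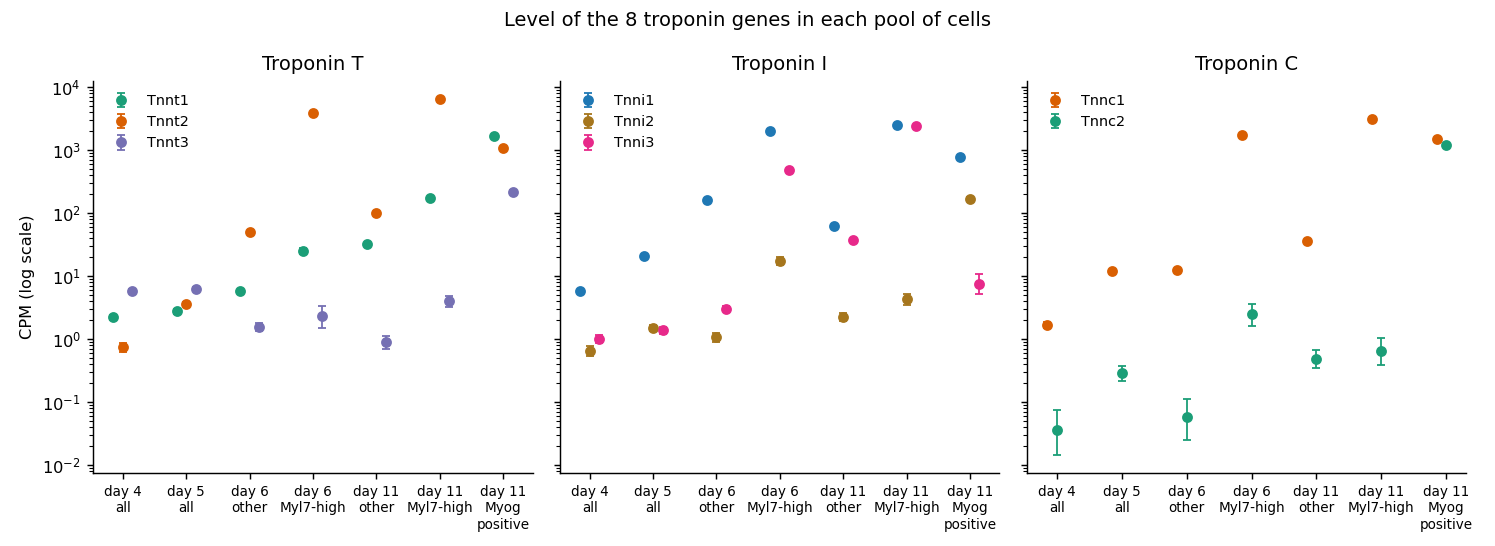
Level of each troponin gene in CPM (vertical axis, log scale) in 7 pools of cells (horizontal axis), by subunit. Points are summed levels of 1 library each and bars are exact 95% Poisson intervals, which cover counting error only. Tnnt2 stands highest of the troponin T genes in the Myl7-high cells of days 6 and 11, and Tnnt1 in the Myog positive cells.

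Within troponin T, the leading isoform changed between the libraries. Tnnt3 took 66.4% (64.1 to 68.6) of the 1708 Tnnt UMIs of day 4 and 49.9% (48.0 to 51.9) of the 2548 UMIs of day 5, with Tnnt1 at 25.2% and 21.6% and Tnnt2 at 8.43% and 28.5%. At day 6, Tnnt2 took 97.5% of 52825 UMIs over all cells and Tnnt3 0.464%. The change in share at day 6 came with both a higher Tnnt2 and a lower Tnnt3 level. Within troponin I, Tnni1 led over all cells at each day, with 77.7%, 87.7%, 87.8% and 52.4%. Tnni3 took 13.5% of 1423 UMIs at day 4, 5.86% at day 5, 11.6% at day 6 and 46.9% (46.7 to 47.2) of 144580 UMIs at day 11. Within troponin C, Tnnc1 took 97.9%, 97.7%, 99.8% and 95.02%, and the rest was Tnnc2.

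**Figure D2:**
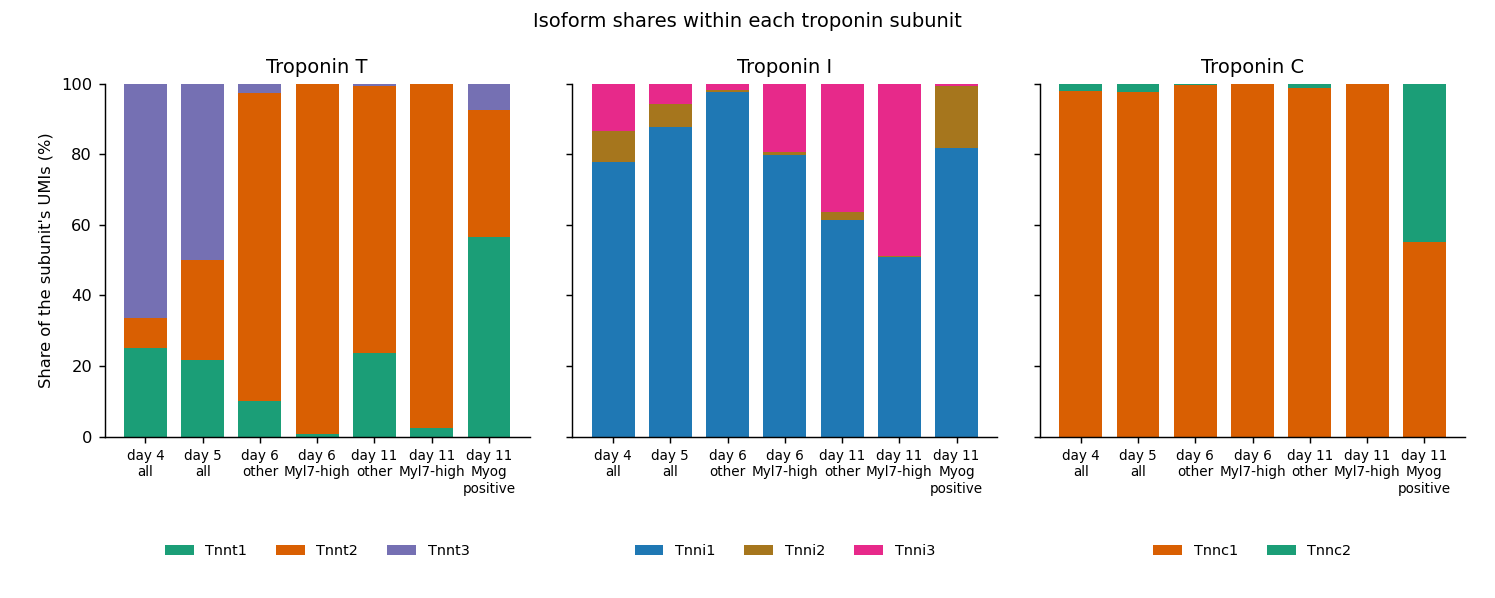
Share of each isoform in the summed UMIs of its subunit (vertical axis, percent) in the same 7 pools of cells (horizontal axis). Each bar sums to 100% and carries no error bar, since each rests on 1 library. Tnni3 widens from 19.4% to 49.0% of troponin I in the Myl7-high cells between days 6 and 11, and Tnnc2 holds 44.8% of the summed troponin C UMIs of the Myog positive cells, where Tnnc1 takes 71.1% when each cell counts equally.

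Among the Myl7-high cells, the shares of the troponin I isoforms differed between days 6 and 11. Tnni3 took 19.4% (19.0 to 19.9) of 28607 Tnni UMIs at day 6 and 49.0% (48.7 to 49.2) of 129605 at day 11, and the intervals did not overlap. The Tnni1 level was 2024 (1998 to 2051) CPM at day 6 and 2568 (2549 to 2588) at day 11, whereas the Tnni3 level was 492 (479 to 505) and 2468 (2449 to 2487). Tnni3 was thus 5.02-fold (4.88 to 5.16) higher at day 11 and Tnni1 1.27-fold (1.25 to 1.29) higher. The wider Tnni3 share came with a higher Tnni3 level and not with a lower Tnni1 level. When each cell counted equally the mean Tnni3 share was 12.1% at day 6 and 43.0% at day 11.

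Tnnt2 held troponin T in these cells, with 99.3% (99.2 to 99.4) of 44908 UMIs at day 6 and 97.4% of 172483 at day 11. Its level was 3949 CPM at day 6 and 6532 at day 11, a ratio of 1.65. Tnnt1, the slow skeletal form, was 6.81-fold (6.04 to 7.70) higher at day 11, at 172 against 25.2 CPM, and took 2.56% of troponin T there against 0.635% at day 6. Tnnc1 took 99.9% of troponin C at day 6, and its level was 1756 and 3149 CPM at the 2 days. The fast skeletal genes stayed low, with Tnnt3 at 2.30 and 4.04 CPM, Tnnc2 at 2.48 and 0.66, and Tnni2 at 17.4 and 4.32. In the order of levels, Tnnt2, Tnni1, Tnnc1, Tnni3 and Tnnt1 at day 6 and Tnnt2, Tnnc1, Tnni1, Tnni3 and Tnnt1 at day 11 were apart beyond their intervals, and Tnnt3 overlapped with Tnnc2 at day 6 and with Tnni2 at day 11.

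Against all genes in the Myl7-high cells, 6 troponin genes had a mean of 5 or more. Tnnt1 and Tnni3 were called higher at day 11 and Tnni2 lower, where 7.17% of 9627 genes were called higher and 7.26% lower and the median log2 ratio was -0.11. The log2 ratio was 2.32 for Tnni3, 2.72 for Tnnt1, 0.73 for Tnnt2, 0.84 for Tnnc1, 0.34 for Tnni1 and -1.79 for Tnni2. Tnni2 was under 5 CPM at day 11, and its call was lost with 10 added (-0.94). Other sarcomere and calcium genes were taken from 4 lists. Of 11 measured thin filament genes, 3 were called higher (Lmod2 at 2.81, Lmod3 at 1.18 and Tpm1 at 1.04 on the log2 scale) and 4 lower, with Tpm4 at -2.18 and Tpm3 at -1.87. Of 13 thick filament genes, 5 were higher, led by Myom2 at 2.65 and Myh6, the fast cardiac myosin heavy chain, at 2.25, and 2 were lower, Mylpf at -1.91 and Mybpc1 at -1.63. Of 11 genes of the Z disc and titin, 6 were higher and none lower, led by Myoz2 at 5.78. Of 9 calcium handling genes, 5 were higher and none lower, led by Sln at 6.61, Casq2 at 3.76 and Pln, which restrains the calcium pump, at 3.70. In the cells of day 6, Myoz2 had 1 UMI, Sln 9, Casq2 0 and Myom2 15, so their ratios and places depend on the constant added. Lmod2 (4.25 CPM at day 6) and Mybpc1 (4.86 at day 11) were also under 5 CPM in one pool. Lmod3 stood at only 7.79 CPM at day 6 and 18.9 at day 11. The medians of the lists were -0.07, 0.76, 1.22 and 1.26 in that order.

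Detection of Tnni3 in single cells was set beside depth and free RNA. Tnni3 had at least 1 UMI in 54.7% of the Myl7-high cells at day 6 and 92.2% at day 11, with medians of 23500.5 and 17411.5 UMIs per cell. After each cell was thinned to 5000 UMIs, which left 424 and 1159 cells, the shares were 41.3% and 88.2%. In cells of the neural marker set, which serve as a reference for free RNA, Tnni3 had a UMI in 6.08% of 148 cells at day 6 (median 32960.5 UMIs) and in 8.65% of 705 cells at day 11 (median 10501 UMIs), or 2.70% of 148 and 3.93% of 687 cells after thinning. The level in that set was 1.69% of the level over all cells for Tnnt2, 3.59% for Tnni1, 4.23% for Tnni3 and 2.87% for Tnnc1 at day 6. It was between 0.979% and 1.26% for Tnnt2, Tnni1 and Tnni3 at day 11, and 1.79% for Tnnc1.

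Cell by cell, the Tnni3 share was lower in the Myl7-high cells of day 6 than in those of day 11. Among 422 cells of day 6 with 10 or more Tnni UMIs, the lowest Tnni3 share was 0, the median 2.33% and the highest 63.2%. Tnni3 was not detected in 189 of them (44.8%), at a median of 54 Tnni UMIs per cell. Among 1203 cells of day 11, the lowest was 0, the median 48.8% and the highest 79.3%, with no Tnni3 in 80 cells (6.65%). Tnni1 and Tnni3 were both detected in 55.2% of the cells of day 6 and 93.35% of those of day 11. Tnni3 exceeded the rest of troponin I in 19 cells (4.50%) of day 6 and 541 cells (45.0%) of day 11. The spread over cells had an SD of 17.3 percentage points at day 6 and 19.7 at day 11, against 5.98 and 6.95 from sampling of the UMIs alone.

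**Figure D3:**
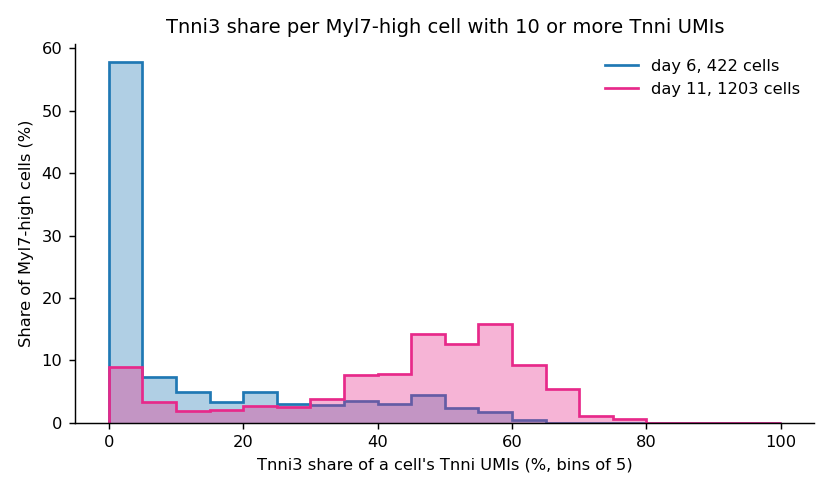
Tnni3 share of the Tnni UMIs of each Myl7-high cell (horizontal axis, percent, in bins of 5) against the share of cells (vertical axis, percent), for 422 cells of day 6 and 1203 cells of day 11 with 10 or more Tnni UMIs. Day 6 peaks in the lowest bin with 57.8% of cells, and day 11 lies around its median of 48.8% with a second group near 0.

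Subdivision of the Myl7-high cells used Myl2, the ventricular myosin light chain (1000 or more CPM), and Shox2, a transcription factor of the sinus node and venous pole (at least 1 UMI, with Myl2 below that level). At day 6, Tnni3 took 37.8% (36.4 to 39.1) of troponin I in the 38 Myl2-high cells. It took 18.9% (18.2 to 19.7) in the 163 Shox2 positive cells and 13.1% (12.6 to 13.7) in the remaining 227. Among cells with 10 or more Tnni UMIs, the median share was 40.4%, 5.2% and 0 in that order. No Tnni3 was found in 1 of 38, 53 of 162 and 135 of 222 of these cells. Their median number of Tnni UMIs was 118.5, 51 and 50.5 in the same order. The median depth of the groups was 28874.5, 23911 and 22472 UMIs, and the part of depth was not tested. At day 11, the shares were 50.4% in 344 Myl2-high cells, 48.5% in 655 Shox2 positive cells and 46.8% in 265 remaining cells, so the 3 groups lay closer together. Tnni3 was detected in each of 340 Myl2-high cells of day 11 with 10 or more Tnni UMIs, while 54 of 627 Shox2 positive cells and 26 of 236 remaining cells had none. The median depth was 18936, 18015 and 14637 UMIs in that order.

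The Myl2-high cells of day 6 also had the highest Tnnt2, at 6791 CPM against 3017 and 4060, and the highest Tnnc1, at 3183 against 1478 and 1656. Tnni1 differed less, at 2431 against 1767 and 2140 CPM. At day 11, Tnnt1 was highest in the Shox2 positive cells, at 218 CPM against 126 in the Myl2-high and 107 in the remaining cells. Cycling cells, with at least 2 of 5 proliferation genes detected, had a lower Tnni3 share than the others at day 6 (13.6% of 144 cells' UMIs against 22.3% in 284 cells). At day 11 the order was the other way round, with 49.98% in 192 cycling cells (49.4 to 50.6) and 48.7% in 1072 others (48.4 to 49.0). The cycling cells were deeper, with medians of 26181 against 22463 UMIs at day 6 and 27860.5 against 16372.5 at day 11, and the part of depth was not tested.

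At days 6 and 11, Tnnt2, Tnni1, Tnnc1 and Tnni3 were higher in each higher range of Myl7 from 100 CPM on. Their order differed between the libraries. Tnnt3 did not follow Myl7 at day 6 (1.04 to 2.60 CPM over the ranges), nor did Tnnt1 below 1000 CPM of Myl7 at day 11 (20.8 to 39.5). At day 6, cells with 100 to 300 CPM of Myl7 already had 336 CPM of Tnni1, with 67.5 of Tnnt2, 10.9 of Tnnc1 and 9.31 of Tnni3. In cells with 1000 to 3000 CPM of Myl7, Tnni1 stood at 1006, Tnnt2 at 695, Tnnc1 at 146 and Tnni3 at 19.9. Tnni1 thus stood above Tnnt2 in every range of Myl7 below 3000 CPM, and below it in both ranges above. At 10000 CPM or more of Myl7, Tnnt2 reached 5452 and Tnni3 821. At day 11, cells with 1000 to 3000 CPM of Myl7 had 1211 CPM of Tnni3 and 1332 of Tnni1. Tnni3 thus made up 47.6% of troponin I there against 1.93% in the same range at day 6. The contrast was smaller above that range, with 45.7% against 5.61% from 3000 to 10000 CPM and 49.9% against 25.6% at 10000 or more. The last range held 219 of the 428 Myl7-high cells of day 6 and 885 of the 1264 of day 11, so these pools also differed in Myl7.

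**Figure D4:**
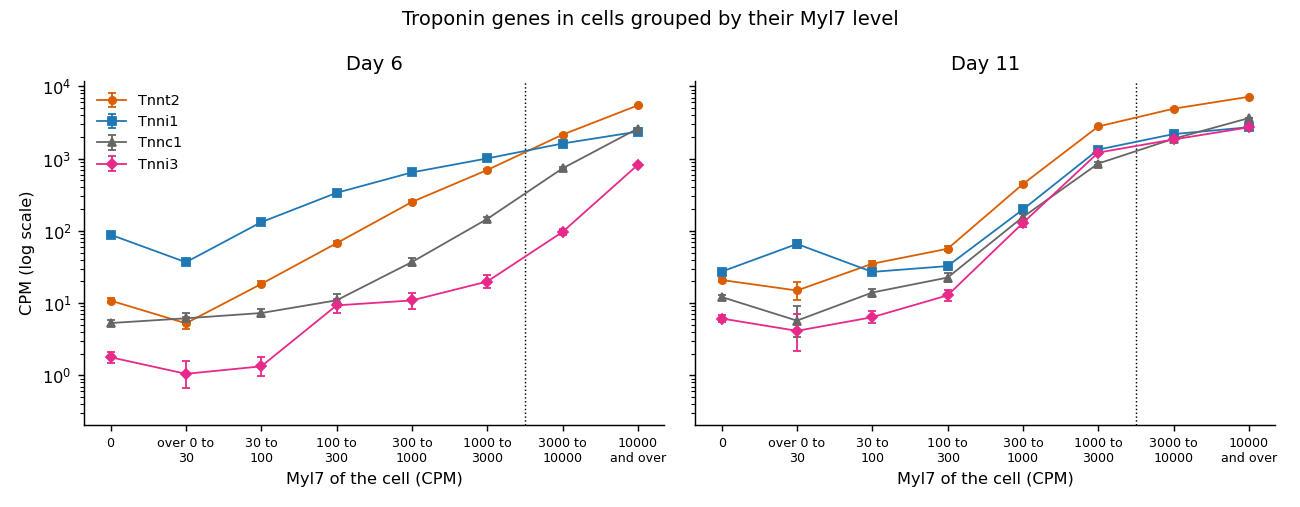
Levels of Tnnt2, Tnni1, Tnnc1 and Tnni3 in CPM (vertical axis, log scale) in cells grouped by their Myl7 level (horizontal axis), at days 6 and 11. Points are summed levels with exact 95% Poisson intervals for counting error, and the dotted line marks the limit of 3000 CPM used for Myl7-high cells. At day 6 Tnni1 lies above the other 3 genes up to that line, and at day 11 Tnni1 and Tnni3 run together at its right.

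Myl7-high cells were next set against cells of neither class. At day 6, the 6 troponin genes with a mean of 5 or more were all called higher in the Myl7-high cells, against 7.03% of 9768 genes higher and 7.83% lower. Tnni2 and Tnni3 were under 5 CPM in the cells of neither class and passed through the Myl7-high cells alone, and Tnnt3 and Tnnc2 did not reach the mean. With 1 added, Tnnc1 (1756 against 12.6 CPM) and Tnni3 (492 against 3.05) had the largest log2 ratios, 7.02 and 6.93. With 10 added, Tnnt2 (6.05) stood above Tnni3 (5.26), and with 0.1 added Tnni3 (7.29) stood above Tnnc1 (7.11). Tnni1 had a log2 ratio of 3.63, since cells of neither class held 162 CPM. At day 11, 5 genes reached the mean and all 5 were called higher, against 10.5% of 10264 genes higher and 17.3% lower, with log2 ratios of 6.39 for Tnnc1, 5.98 for Tnnt2 and Tnni3, 5.31 for Tnni1 and 2.38 for Tnnt1. In cells of neither class at day 11, Tnni3 took 36.5% of troponin I, and 21.8% when cells above 1000 CPM of Myl7 were counted as Myl7-high.

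Tnni1 was the troponin gene found most widely outside the muscle classes at day 6. It took 97.5% (97.3 to 97.7) of the 23107 Tnni UMIs of the 4823 cells of neither class, and 61.4% of these cells had at least 1 UMI of Tnni1 against 30.5% for Tnnt2. In the neural marker set, Tnni1 had a UMI in 16.2% of cells and Tnnt2 in 15.5%, at a deeper median of 32960.5 UMIs against 24886. Cells were assigned to marker sets where 3 or more genes of a list were detected. In the 1144 cells with cardiac transcription factors, Tnni1 stood at 410 CPM and Tnnt2 at 158. Of these cells, 590 had both genes, 426 Tnni1 without Tnnt2, 19 Tnnt2 without Tnni1 and 109 neither. The mesenchyme set of 516 cells had 174 CPM of Tnni1 and 20.7 of Tnnt2, and the endothelial, somitic, neural and endoderm sets had 31.2, 15.6, 10.8 and 3.93 of Tnni1.

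At day 11 Tnni1 remained present in the endothelial set, at 88.2 CPM in 439 cells, where Tnnt2 stood at 36.7 and Tnni3 at 7.80. Tnni1 reached there 13.2% (12.4 to 14.2) of its level over all cells, against 2.26% for Tnnt2, 1.31% for Tnni3 and 1.34% for Myl7. In the neural set the same values were 1.01%, 0.979%, 1.26% and 1.13%. The cells with cardiac factors that missed the Myl7 limit at day 11, 174 in number, had 1493 CPM of Tnnt2, 769 of Tnni1 and 729 of Tnni3, so that Tnni3 took 48.6% of troponin I, near the share in the Myl7-high cells.

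The Myog positive cells of day 11 used all 3 troponin T genes, with Tnnt1 in the lead. Tnnt1 took 56.7% (55.8 to 57.6) of 11820 Tnnt UMIs, Tnnt2 36.0% (35.1 to 36.8) and Tnnt3 7.35% (6.89 to 7.84). Their levels were 1704, 1081 and 221 CPM. With each cell counted equally the Tnnt3 share was 3.05%. No Tnnt3 UMI was found in 125 of 178 cells. Tnni1 took 81.6% (80.4 to 82.9) of troponin I, the fast form Tnni2 17.6% and the cardiac form Tnni3 0.788%. The small Tnni3 share moved with the settings, to 0.399% in cells with 2 or more Myog UMIs, 1.54% with doublets left in, 3.43% with the Myl7 limit at 6000 CPM and 11.48% when each cell counted equally. Tnni3 stood at 7.63 CPM (5.15 to 10.9), close to its 7.53 in the neural set. Troponin C was divided between Tnnc1 at 55.2% (54.3 to 56.2) and Tnnc2 at 44.8%, with 1493 and 1209 CPM. With each cell counted equally Tnnc1 took 71.1%. The order of levels was Tnnt1, Tnnc1, Tnnc2, Tnnt2, Tnni1, Tnnt3, Tnni2 and Tnni3, and no neighbours in it had overlapping intervals.

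Single cells of this class differed widely. Tnnt1 had a lowest value of 0, a median of 943 and a highest of 8079 CPM. Tnnt2 ranged from 0 over a median of 99.5 to 8000, and Tnnc2 was at 0 in 124 cells and reached 12260 CPM. Of the 178 cells, 103 had both Tnnt1 and Tnnt2, 54 Tnnt1 without Tnnt2, 9 Tnnt2 without Tnnt1 and 12 neither. Each of the 53 cells with Tnnt3 also had Tnnt1, and 50 of the 54 cells with Tnnc2 also had Tnnc1.

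Myh3, the embryonic myosin heavy chain, divided the class. The 68 cells with a Myh3 UMI had 3368 CPM of Tnnt1, 2595 of Tnnt2, 556 of Tnnt3, 1980 of Tnni1, 421 of Tnni2, 3742 of Tnnc1 and 3060 of Tnnc2. The 110 cells without one had 621 CPM of Tnnt1 and 96.2 of Tnnt2, and each of the other 6 genes was below 30 CPM. Tnnt1 therefore took 86.2% (84.5 to 87.8) of troponin T in the Myh3 negative cells and 51.7% (50.7 to 52.6) in the Myh3 positive cells. The Myh3 negative value was 80.3% when all cells with over 200 genes were used and 80.4% with doublets left in. Tnnc2 took 45.0% of 10545 Tnnc UMIs in the Myh3 positive cells and 13.9% (7.16 to 23.5) of only 79 in the others. The median depth was 22285 and 19218.5 UMIs, and Myog itself stood at 1729 and 373 CPM. A cell can miss Myh3 through low sampling, so the Myh3 negative cells are those in which it was not detected.

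**Figure D5:**
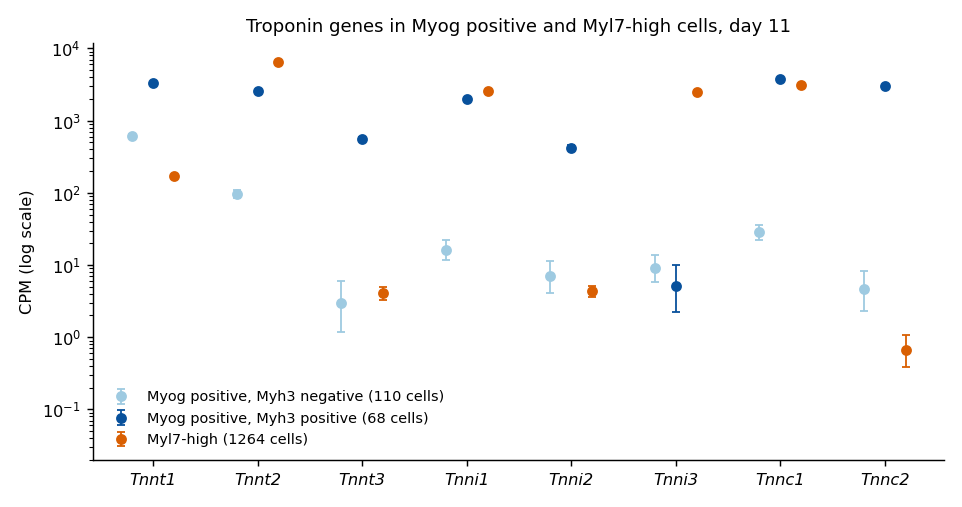
Level of the 8 troponin genes (horizontal axis) in CPM (vertical axis, log scale) in Myog positive cells without and with a Myh3 UMI and in Myl7-high cells, all of day 11. Points are summed levels and bars exact 95% Poisson intervals for counting error. Of the 8 genes, Tnnt1 has the highest level within the Myh3 negative cells, at 621 CPM, and Tnni3 stands at 2468 CPM in the Myl7-high cells against 5.16 and 9.24 in the Myog positive cells with and without Myh3.

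Set against the Myl7-high cells of the same library, the Myog positive cells were called higher for 4 troponin genes and lower for the other 4, where 11.9% of 9617 genes were called higher and 17.8% lower. Tnnt3, Tnni2 and Tnnc2 were under 5 CPM in the Myl7-high cells. Tnnc2 had a log2 ratio of 9.51, Tnnt3 5.46, Tnni2 5.01 and Tnnt1 3.30. Tnni3 had a log2 ratio of -8.16, Tnnt2 -2.59, Tnni1 -1.70 and Tnnc1 -1.08. The ratio for Tnnc2 rests on 17 UMIs in the Myl7-high cells and 4755 in the Myog positive cells, and it stays large within its interval (1141 to 3143-fold). Of 12 thin filament genes measured, 6 were higher, led by Neb at 8.67, Acta1 at 5.85 and Tpm2 at 3.55, and 4 were lower, led by Nebl at -6.68. Of 15 thick filament genes, 5 were higher, led by Myh3 at 8.96 and Mylpf at 7.97, and 9 lower, led by Myl7 at -8.71. Of 11 calcium handling genes, 3 were higher, led by Ryr1, the skeletal calcium release channel, at 5.65. The 6 lower ones were led by Ryr2, its cardiac counterpart, at -7.27. The calsequestrin genes went the other way, with the skeletal form Casq1 at -5.98 and the cardiac form Casq2 at 2.49. Of 12 genes of the Z disc and titin, Actn3 alone was higher, at 3.94, and 6 were lower. In the Myl7-high cells, Myh3 had 2 UMIs, Ryr1 7, Neb 10 and Actn3 23. Ryr2 had 6, Nebl 13 and Casq1 17 in the Myog positive cells. The ratios of these genes therefore depend on the constant added. Myog and Myl7 chose these cells, so their own ratios are a description.

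The 20 cells that met both rules were nearer in their troponin shares to the Myl7-high than to the Myog positive cells. Tnnt2 took 95.3% of their troponin T, Tnni3 47.2% of troponin I and Tnnc1 99.9% of troponin C. Tnnc2 took 0.102% of troponin C and Tnnt3 0.0787% of troponin T. The rest of their troponin T was Tnnt1, which lay above its 2.56% in the Myl7-high cells of day 11. Their median depth was 21388 UMIs, against 17411.5 in the Myl7-high and 19974.5 in the Myog positive cells, and whether they were doublets was not tested.

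Before cardiac and skeletal muscle appeared, the low levels differed among marker sets. Tnnt1 was highest in the pluripotent set, at 7.31 CPM in 563 cells of day 4 and 10.7 in 400 cells of day 5, which is 327% (275 to 387) and 387% (326 to 455) of its level over all cells. Tnnt3 was low in the same set (1.17 and 0.59 CPM) and stood at 9.32 in the cardiac factor set and 16.0 in the mesenchyme set of day 4. Tnni1 had 1 UMI in the 344 endoderm cells of day 4 (0.10 CPM) against 9.32 CPM in the cardiac factor set. At day 5, Tnnc1 was highest in the endoderm set, at 24.4 CPM, or 203% (185 to 223) of its level over all cells, where Myl7 stood at 215%. No cell of days 4 and 5 was Myl7-high. The troponin levels given here rest on less than 1 UMI of the gene per cell.

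Outside the muscle classes, some of the less abundant genes stood higher in single marker sets. Tnni2 stood at 87.2 CPM in the 51 cells of the haematopoietic set of day 11, from 128 UMIs, and 72.5% of these cells had at least 1 UMI, against 0.142% in the neural set, with median depths of 26825 and 10501 UMIs. After thinning to 5000 UMIs the shares were 30.6% and 0. The other 2 troponin I genes stood at 4.77 CPM each in that set, against 6.70 and 7.53 in the neural set. Tnnt3 stood at 7.33 CPM in the endothelial set of day 6, which is 450% (368 to 544) of its level over all cells, and at 12.6 in that of day 5. Tnnt1 stood at 88.7 CPM in the 75 cells of the somitic set of day 11, and only 16.0% of them had a UMI. That level was below the one over all cells, at 72.1% of it (58.6 to 87.8), and the cardiac factor set of day 11 held 73.6 CPM.

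Across 30 marker sets and classes of all days with 50 or more cells, each troponin gene was compared with 5746 genes by Pearson correlation of log2 levels (with 1 added). The sets of a day share a library, so the values are a description. The genes most like Tnnt2 were Myl4 (r = 0.97), Actc1 (0.96) and Hipk3 (0.96), and those most like Tnni3 were Mybpc3, Myh6 and Pln (0.98 each). Tnni1 was most like Myl4, Popdc2 and Ccdc141 (0.92 each), and Tnnc1 most like Cryab (0.95), Smpx (0.94) and Myom1 (0.94). Among the skeletal forms, Tnnc2 was most like Mybph, Mylk4 and Mymk (0.98 each), Tnnt1 most like Mybpc1 (0.89), Ncoa1 (0.87) and Ank1 (0.87), and Tnnt3 most like Atp2a1 (0.69), Myog (0.68) and Mybph (0.67). The Tnnc2 values rest on the Myog positive cells, at 1209 CPM, since its next highest set held 2.48 CPM, and Tnnt3 stood at 221 CPM there and at most 16.0 elsewhere. Tnni2 was most like Traf3ip3 (0.84), Efhd2 (0.81) and Gatm (0.79). Its highest level was 170 CPM, in the Myog positive cells, followed by 87.2 in the haematopoietic set of day 11. Among the genomic neighbours, r was 0.90 for Tnnt2 and Tnni1, 0.62 for Tnnt1 and Tnni3, and 0.46 for Tnnt3 and Tnni2. The largest value between members was 0.93, for Tnnt2 and Tnnc1, which lie on different chromosomes.

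The summed isoforms kept different proportions in the 2 muscle classes. In the Myl7-high cells, troponin I had 0.637 UMIs per UMI of troponin T at day 6 and 0.751 at day 11, and troponin C had 0.442 and 0.469. In the Myog positive cells the values were 0.322 and 0.899, but they differed within the class. Troponin C had 1.04 UMIs per UMI of troponin T in the Myh3 positive cells and 0.0461 in the Myh3 negative cells, and troponin I had 0.369 and 0.0455, so the troponin C ratio was above that of the Myl7-high cells of day 11 in the former and below it in the latter. In cells of neither class at day 6, troponin I exceeded troponin T by 2.92 to 1. These ratios compare tags of different genes, whose capture can differ.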

How the data were processed

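The 4 libraries hold single-cell RNA sequencing counts of UMIs per gene and cell, which the authors made with Cell Ranger before they were deposited. The submitters' processing notes name Cell Ranger 3.1.0 and mm10, and the header of the day 11 matrix names version 6.0.1, whereas those of the earlier days name 3.1.0. Cell Ranger counts reads on the sense strand of a gene. The reporter features GFP and tdTomato had 0 UMIs.

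The files held 7324, 7794, 6628 and 9584 cells at days 4, 5, 6 and 11. Cells were kept with over 200 genes, under 20% mitochondrial and over 5% ribosomal protein UMIs, and a log10 UMI total no farther from the library's median than 3 scaled median absolute deviations. The 8% with the highest score against simulated doublets were then removed. UMIs of a pool of cells were summed, and levels, shares and ratios were given exact Poisson, Clopper-Pearson and conditional binomial 95% intervals. Single libraries gave no test. Cells of neither muscle class went to the marker set with the largest share of its genes detected, and at least 3 genes. The markers detected in each set therefore chose it.

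The genes named are the 8 troponin genes, the genes that define classes, the 3 most like each troponin gene, and up to 3 pathway genes per list and direction with the largest ratio. Members and lists were chosen with earlier results of these data known. The calculations were tested on simulated data. Python 3.11.15, numpy 2.4.6, scipy 1.17.1, pandas 2.3.3, scikit-learn 1.9.0 and matplotlib 3.10.9 were used. Alternatives were other filters, doublets left in, other limits for Myl7 and Myog, the mean over cells, thinning to 5000 UMIs and other added constants.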

Additional observations from a re-analysis of the deposited data

How the results depend on the processing

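Of 45 recomputations of the main shares and ratios, 16 fell outside the counting interval of the value reported. The Tnni3 share of troponin I in Myl7-high cells of day 6 (19.4%) was 20.1% in every cell with over 200 genes, 16.8% and 22.4% with the Myl7 limit at 1000 and 6000 CPM, 12.1% as a mean over cells and 17.4% after thinning. At day 11 (49.0%) it was 49.3% with the limit at 6000, 43.0% as a mean over cells and 48.2% after thinning. The Tnnt2 share there (97.4%) was 96.2% as a mean over cells and 97.2% after thinning. In Myog positive cells, a Myl7 limit of 6000 gave Tnnt2 38.2% and Tnni1 80.1%, the mean over cells gave Tnnt2 26.2%, Tnni1 64.2% and Tnnc1 71.1%, and thinning gave Tnnc1 56.4%. The cause was not tested. Of the other recomputed values, 66 moved and 86 did not, where a count of genes was taken to move when it changed by more than 1.5 times.

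Counts of genes called at 2-fold depended on the constant and the filter. With 10 added, 6 calls of troponin genes were lost, those of Tnni1 and Tnnc1 between days 4 and 5, Tnnt1 between days 5 and 6, Tnnt3 and Tnni2 between days 6 and 11, and Tnni2 within the Myl7-high cells. Without the filter, 5 were gained, with log2 ratios of 1.41 for Tnnt2 at day 5, -1.49 for Tnnt3 at day 6, -1.07 for Tnnc2 in Myl7-high cells at day 11 against day 6, and, in Myl7-high cells against cells of neither class, 1.72 for Tnnc2 at day 6 and 1.41 for Tnnt3 at day 11. For Myl7-high cells between days 6 and 11, 690 genes were higher and 699 lower, against 358 and 289 with 10 added, and up to 1137 and 993 over the alternatives. Over all comparisons, the lowest count was 105 for genes lower at day 5 than day 4 (362 with 1 added) and the highest 2950 for genes lower in Myl7-high cells than in others at day 11 (1778). The troponin I and C shares of the Myh3 negative cells rest on 78 and 79 UMIs in all, at a median of 19218.5 UMIs per cell. No paired analysis was possible because each day has 1 library and no result comes from a test.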
